A study of Danio rerio with 6 samples.

Results

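The 3 wild-type samples of a zebrafish series, labelled WT1, WT2 and WT3, hold the unperturbed transcriptome of the larval head. They were chosen as wild type by their titles and are 3 of the 6 samples in the series. Each sample is total RNA from dissected heads of strain AB larvae at 4 days post-fertilization (dpf), with no mutation and no treatment named in the labels. The other 3 samples, heads of tulp1a and tulp1b double knockout larvae, were not used. The labels do not say how many larvae each sample held or whether the samples came from separate clutches, so the spread between them, and every p-value built on it, may be technical.

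At this age a zebrafish larva swims freely and hunts by sight. Its retina is layered and rich in cones, the photoreceptors of bright light and color, while rods, the photoreceptors of dim light, are still being added. The lens is filled with crystallins, the soluble proteins that give it its refractive power, and the jaw works on cartilage and fast muscle. The ancestor of teleost fish passed through a further duplication of the whole genome, so many genes that are single in mammals are a pair in zebrafish, named a and b. Levels are in TPM (transcripts of the gene per 1000000 transcripts), a unit that divides reads by the length of each gene and by the depth of the library, so that different genes can be set side by side within a sample. The depth behind each value is unknown. In RNA from a whole head, fewer cells of a type and less RNA per cell cannot be told apart.

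The deposited tables listed 32520 genes and other transcribed entries. Of these, 21072 had a mean above 1 TPM, 1174 reached 100 TPM and 153 reached 1000 TPM. A further 5995 were at 0 in all 3 samples, and 23898 were above 0 in all 3. The RNA was concentrated in few genes. The first 50% of the listed TPM came from 338 genes in WT1, 335 in WT2 and 350 in WT3, and the 50 most abundant genes held 20.3%, 20.1% and 20.2%.

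Genes for protein synthesis and for mitochondrial respiration led the head transcriptome. The 88 cytosolic ribosomal proteins, the protein parts of the ribosome, made up 18.3 ± 0.187% of the listed TPM (SD, n = 3) and filled 59 of the first 100 places. The 13 protein genes of the mitochondrial genome, all subunits of the respiratory chain or of ATP synthase, made up 7.43 ± 0.154%. Among them, the 3 subunits of complex IV summed to 29459, 29071 and 28509 TPM in WT1, WT2 and WT3, and the 7 subunits of complex I to 14792, 14581 and 15283 TPM. Tissue products followed at a distance. The 57 crystallins held 2.83 ± 0.160%, the 26 keratins and ictacalcins of the skin 1.51 ± 0.0408%, the 11 visual opsins 1.18 ± 0.113% and the 15 globins 0.678 ± 0.134%.

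The single most abundant entry was mt-atp8, a short subunit gene of ATP synthase, with 15516, 14494 and 16155 TPM. mt-co2, a subunit of complex IV, had 11583, 10813 and 10441 TPM. mt-co1 and mt-co3, the other mitochondrial subunits of that complex, averaged 9762 ± 231 TPM for mt-co1 and 8305 ± 264 TPM for mt-co3 (SD, n = 3). The genes mt-atp8 and mt-atp6 overlap on the mitochondrial genome, so the split of reads between these neighbours is uncertain. The first nuclear genes were si:dkey-151g10.6, at 6134, 5773 and 5566 TPM, and eef1a1l1, which encodes an elongation factor that brings aminoacyl-tRNA to the ribosome, at 4396, 4983 and 5227 TPM. WT1 was lowest for eef1a1l1 and WT3 highest.

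Among the first 30 genes, products of a single tissue were few. icn, an ictacalcin made in the epidermis, ranked 10 with 4113, 4105 and 3723 TPM. opn1sw1, the ultraviolet cone opsin, ranked 13 with 3785, 3525 and 3726 TPM. gngt2b, the gamma subunit of the cone transducin, ranked 30 with 2922, 2676 and 2849 TPM. The order itself was loose: of the 29 neighbouring pairs among the 30 most abundant genes, 21 had overlapping ranges over the 3 samples.

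**Figure D1:**
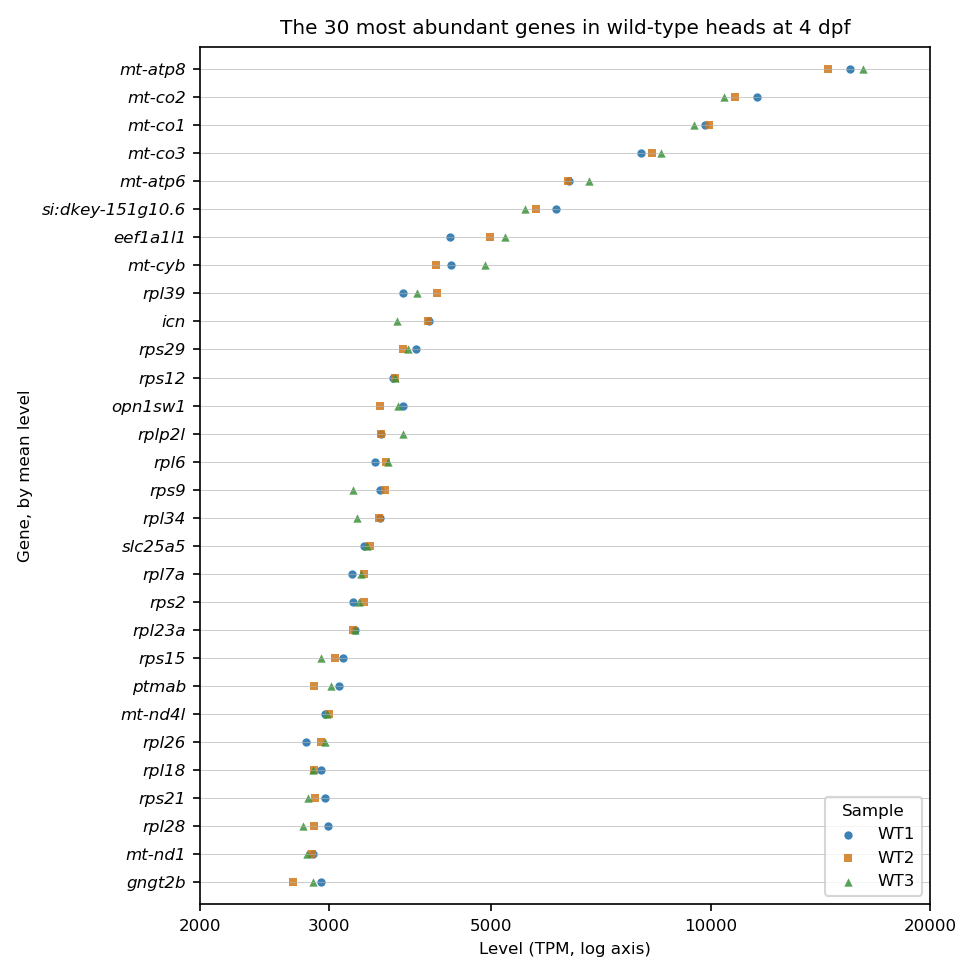
Levels of the 30 most abundant genes in WT1, WT2 and WT3 (TPM, log axis), ordered by their mean. Each point is 1 sample, and the points of 21 of the 29 neighbouring pairs of genes overlap along the axis.

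Lens and cone genes were among the highest marker lists by summed level. A sum depends on the length of its list, which ran between 7 and 65 entries. By the median entry the order was another. It was 168 TPM for the pan-neuronal list, 82.3 TPM for fast muscle, 80.6 TPM for the lens and 28.2 TPM for cones. Other lists lay between these, such as glycolysis enzymes at 103 TPM, Müller glia at 73.9 TPM and rods at 47.4 TPM. The list of lens crystallins and fibre proteins summed to 28574, 27925 and 25633 TPM in WT1, WT2 and WT3, the highest sum of the 47 lists. Gamma crystallins carried most of it, with a sum of 20023 ± 1312 TPM over 41 entries, against 6914 ± 466 TPM for 16 entries named cryb and 57.9 ± 10.23 TPM for 3 alpha crystallins (SD, n = 3). The 16 include crybgx, crybg1a and crybg1b, which are not among the 57 crystallins counted above. The M2d group, a tandem array of gamma crystallin genes found in fish, gave 88.9 ± 0.544% of the gamma sum. Its most abundant members were crygm2d9, at 2607, 2445 and 2352 TPM, crygm2d8, at 1821, 1718 and 1541 TPM, and crygm2d13, at 1385, 1327 and 1195 TPM. These genes are close copies, so their reads may be shared among them and the sum is firmer than the single values. In contrast, crygs1, crygs3, crygm2a and crygm6 were at 0 in all 3 samples.

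Cone genes summed to 17911, 17678 and 17354 TPM, and rod genes to 3329, 3746 and 3583 TPM. The cone list has 31 entries and the rod list 18, so the sums are not a ratio per gene: the median entry stood at 28.2 TPM in the cone list and at 47.4 TPM in the rod list. Of the cone opsins, opn1sw1 (ultraviolet) was the most abundant, followed by the red opsin opn1lw2 with 2489, 2368 and 2991 TPM. The green opsin opn1mw1 had 1593, 1343 and 1978 TPM and the blue opsin opn1sw2 1165, 1048 and 1528 TPM. These 4 took 40.2%, 28.4%, 17.7% and 13.5% of the cone opsin sum on average, and the ranges of opn1sw1 and opn1lw2 did not overlap. The ranges of opn1mw1 and opn1sw2 did overlap. Their tandem neighbours were far lower. opn1mw2 had 14.7, 16.4 and 22.5 TPM, opn1lw1 0.420, 0.490 and 0.840 TPM, opn1mw3 0.140, 0.280 and 0.290 TPM and opn1mw4 0.0700, 0 and 0 TPM. For each of the red and green groups of opsins a single gene thus carried nearly all of the signal.

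rho, the rod opsin, had 1625, 2013 and 2086 TPM. The summed cone opsins were 5.57, 4.12 and 4.91 times the level of rho. The transducin alpha subunits gave a like figure: gnat2, of cones, was 4.204, 4.44 and 5.93 times the level of gnat1, its rod counterpart. The gamma subunits lay further apart, with gngt2b of cones at 2816 ± 126 TPM and gngt1 of rods at 198 ± 21.7 TPM (SD, n = 3). The figure thus depended on the genes compared. gnat2 and gngt1 are also in the pineal list, which gnat2 led. exorh, the opsin of the pineal gland, stood at 11.96, 8.95 and 9.48 TPM. The genes that the series as a whole is about, tulp1a and tulp1b, which encode proteins of the photoreceptor, were modest, at 25.3, 24.98 and 23.7 TPM for tulp1a and 13.1, 11.9 and 9.77 TPM for tulp1b, and the ranges of these copies did not overlap.

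Inner retinal and glial lists had lower sums. The Müller glia list summed to 2125, 2160.2 and 1835 TPM, led by glula, a glutamine synthetase, at 486, 496 and 425 TPM. That list shares genes with glia of the brain. The lists of amacrine and horizontal cells averaged 752 ± 42.0 TPM, bipolar cells 594 ± 15.8 TPM and retinal ganglion cells 474 ± 21.3 TPM (SD, n = 3). These sums are not particular to the retina. calb2a, which leads the amacrine and horizontal cell list, also leads the olfactory list, gad1b in the same list also leads the transmitter list, and gnao1b, which leads the bipolar list, encodes a G protein subunit found in many neurons. Retinal pigment epithelium and melanocytes together gave 325 ± 31.7 TPM. rbpms2a, an RNA-binding protein of ganglion cells, led its list with 116, 107 and 108 TPM, and tyrp1b, a melanin enzyme, led the pigment list with 65.0, 67.6 and 83.0 TPM.

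Of the brain lists, the pan-neuronal list had the highest sum. RNA of the whole head includes the retina, so the sums of these lists are not particular to the brain. The gene gad1b of the transmitter list, for example, is also in the amacrine and horizontal cell list. The pan-neuronal list summed to 11805, 11607 and 12695 TPM in WT1, WT2 and WT3, and all of its 46 entries were above 1 TPM. Its most abundant members were ckbb, a brain creatine kinase, at 1541, 1705 and 1814 TPM, tuba1c, a neuronal alpha tubulin, at 1244, 1259.9 and 1326 TPM, and sncb, which encodes beta-synuclein, at 1082, 951 and 1160.3 TPM. Radial glia and neural progenitors gave 3496 ± 135 TPM, of which fabp7a, a fatty acid binding protein of radial glia, alone had 1777, 1654 and 1565 TPM. Oligodendrocyte and Schwann cell genes gave 739.9 ± 19.3 TPM, with the myelin basic protein copies mbpa and mbpb at 91.7 ± 8.96 TPM for mbpa and 148 ± 3.49 TPM for mbpb. Genes that define transmitter type gave 851 ± 10.6 TPM and were led by the GABA-synthesizing enzyme gad1b, at 157, 158 and 166 TPM. adcyap1b, which encodes the neuropeptide PACAP, led the neuropeptide list with 153, 139 and 136 TPM. The pituitary somatolactin genes smtla and smtlb were at 0 in all 3 samples.

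Fast skeletal muscle was second to the lens in summed level, with 17433, 18016 and 18305 TPM in WT1, WT2 and WT3. Its range overlapped that of the cone list, so these lists were not ordered. The leading genes were actc1b, an actin of striated muscle, at 1382, 1774 and 1945 TPM, the calcium buffer pvalb2, at 1653, 1733 and 1498 TPM, and the fast myosin light chain mylpfa, at 1521, 1539 and 1496 TPM. actc1b was lowest in WT1 and highest in WT3. Slow muscle genes gave 1464 ± 28.5 TPM and heart genes 543 ± 21.5 TPM. These lists are shorter, with 64 entries for fast muscle, 17 for slow muscle and 26 for heart, and the median entry stood at 82.3 TPM for fast muscle, 39.9 TPM for slow muscle and 10.27 TPM for heart. The heart markers were well above 0: myl7, a light chain specific to heart muscle, had 89.2, 91.4 and 79.7 TPM.

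Red cells showed globins of the embryonic and larval kind. hbae3, an embryonic alpha globin, had 2255, 2429 and 1955 TPM. The 10 embryonic and larval globin entries summed to 6586, 7589 and 5068 TPM, against 1.07, 1.03 and 0 TPM for the 5 adult globin entries. Alpha globins exceeded beta globins 1.95, 2.03 and 1.76 times. Immune markers were sparse. Microglia and macrophage genes summed to 146 ± 6.70 TPM, neutrophil and mast cell genes to 195 ± 31.4 TPM, and lymphocyte and thymus genes to 89.5 ± 10.6 TPM (SD, n = 3). cpa5, a carboxypeptidase gene, led the neutrophil and mast cell list with 56.35, 76.43 and 36.15 TPM. Without cpa5 that sum was 139 ± 11.4 TPM. Only 8 of 19 lymphocyte and thymus entries were above 1 TPM, and cd8a, the co-receptor of cytotoxic T cells, was at 0 in all 3 samples. The single gene tox held 61.0% of that list's sum, and without its 3 most abundant members the sum was 14.3 ± 0.319 TPM. Interferon response genes gave 85.0 ± 2.47 TPM, with 12 of 33 entries above 1 TPM. Endothelium gave 335 ± 15.7 TPM.

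The skin list summed to 17614, 17315 and 16712 TPM and all 63 entries were above 1 TPM. After icn, its leading genes were the keratins krt4, at 2189, 2261 and 2214 TPM, and cyt1, at 1834, 1686 and 1826 TPM. Cartilage genes summed to 4454, 4351 and 5105 TPM. col2a1a, the type II collagen chain of cartilage, had 758, 799 and 982 TPM, and matn1, a cartilage matrix protein, had 789, 711 and 803 TPM. WT3 was highest for col2a1a, matn1 and the cartilage list. Bone and connective tissue gave 3249.7 ± 105 TPM and was led by sparc, a collagen-binding matrix glycoprotein, at 843, 795 and 868 TPM.

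Organs of the trunk were represented although the tissue label is head. Liver genes summed to 7155, 10066 and 7448 TPM, above erythrocytes and cartilage in mean sum. The liver range overlapped that of the erythrocyte list, so these lists were not ordered. By the median entry cartilage was higher, at 58.7 TPM against 28.0 TPM for liver. apoa2 and apoa1b, apolipoproteins of high-density lipoprotein, had 1872, 2689 and 1976 TPM for apoa2 and 1369, 2024 and 1541 TPM for apoa1b. fabp10a, a fatty acid binding protein specific to fish liver, had 846, 1205 and 926 TPM. Intestine genes summed to 1537, 2686 and 2091 TPM, and exocrine pancreas genes to 1305, 2048 and 1249 TPM. prss59.2 and prss1, both trypsins, had 265, 408 and 235 TPM for prss59.2 and 194, 282 and 186 TPM for prss1. Endocrine pancreas genes summed to 342, 371 and 384 TPM, led by neurod1, which neurons and photoreceptors also express. ins, the insulin gene, had 33.2, 43.6 and 38.5 TPM. The kidney list, pronephros, gave 221 ± 18.8 TPM. It was led by slc4a4a, at 48.4 ± 4.41 TPM, and the median entry of the list stood at only 3.16 TPM. Without its 3 most abundant members the sum was 123 ± 20.2 TPM. Whether the RNA of these genes came from kidney was not tested. Liver, intestine and exocrine pancreas genes were thus detected in all 3 samples and highest in WT2. The endocrine pancreas sum was highest in WT3, but its entries were divided. Of the 12 with a mean of at least 1 TPM, 6 were highest in WT2, ins among them, and 5 in WT3. cdx4, a regulator of the posterior body, and fabp6, a bile acid binding protein of the distal gut, were at 0. Germ cell genes gave 7.40 ± 0.735 TPM and yolk vitellogenins 0.370 ± 0.227 TPM, the lowest of the 47 lists, with vtg4, vtg5 and vtg6 at 0.

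**Figure D2:**
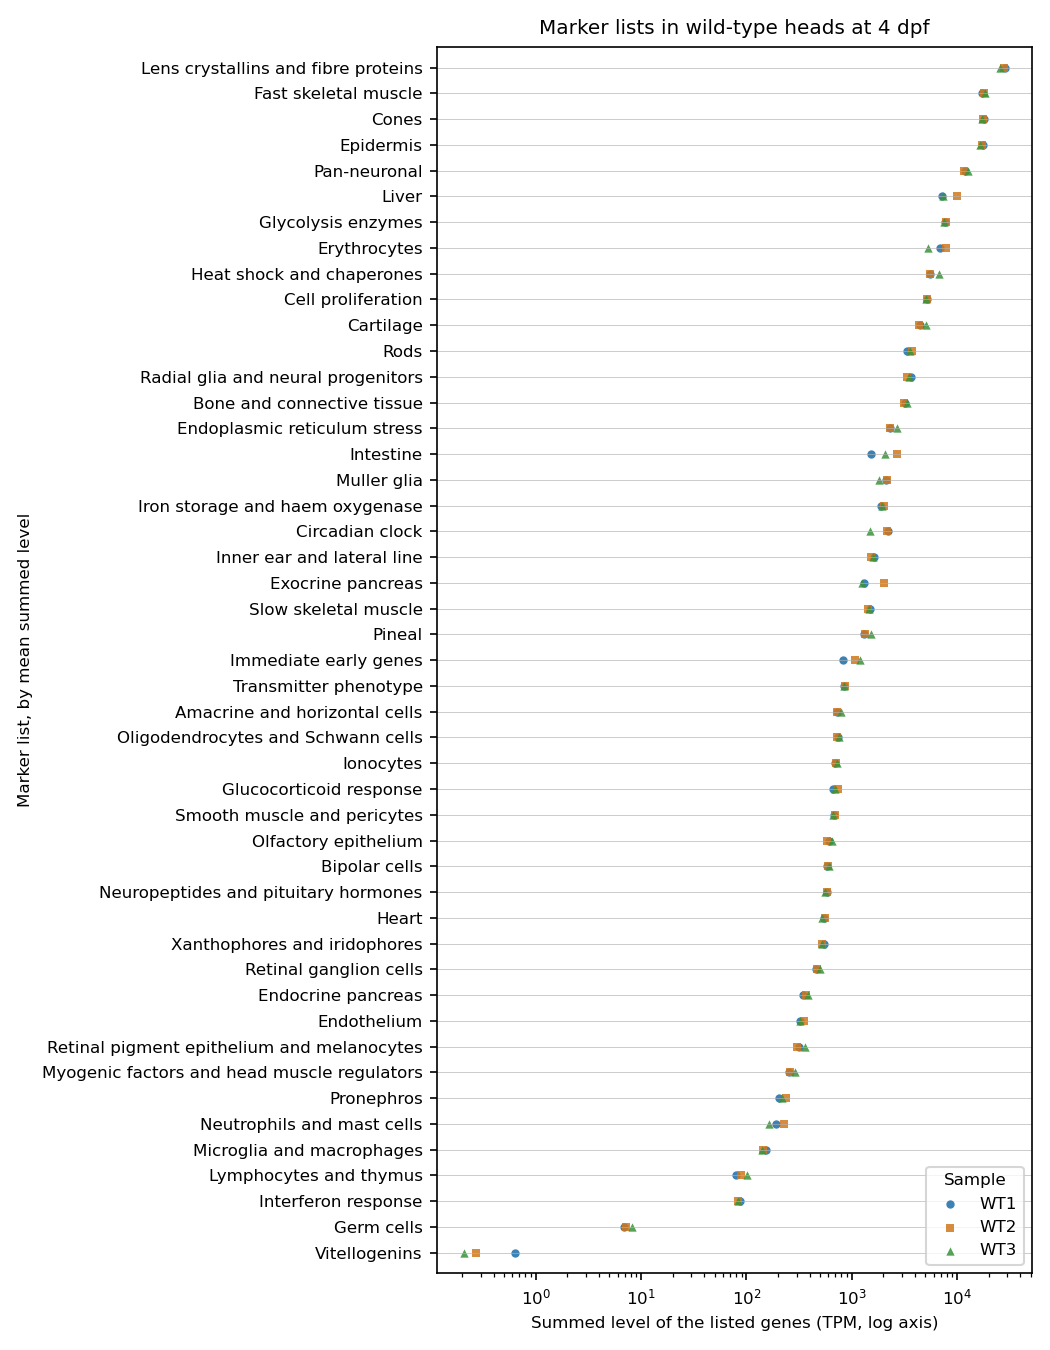
Summed level of each of the 47 marker lists in WT1, WT2 and WT3 (TPM, log axis), ordered by the mean sum, which depends on the number of entries in a list. Each point is 1 sample. Of the 47 lists, 24 reached a mean sum of 1000 TPM, and liver, intestine, exocrine pancreas, erythrocytes, circadian clock and immediate early genes show the widest gaps between samples among these.

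The hox genes mark position along the body axis: low-numbered paralog groups are used from the hindbrain backwards, high-numbered groups in the trunk and tail. All 17 genes of paralog groups 1 to 5 were above 1 TPM. They summed to 210 ± 2.21 TPM, or 86.5 ± 1.72% of all hox TPM (SD, n = 3). The 8 genes of groups 6 to 8 were also above 1 TPM and gave 28.2 ± 4.33 TPM. None of the 23 genes of groups 9 to 13 reached 1 TPM, and hoxa9a, hoxa11a, hoxb10a, hoxb13a, hoxc12a and hoxc13a were at 0 in all 3 samples. Group 4 had the highest sum, 67.0 ± 6.02 TPM, but its range overlapped that of group 5, 64.8 ± 3.17 TPM. The most abundant single genes were hoxb3a, at 35.7, 36.5 and 28.2 TPM, hoxa4a, at 25.9, 28.6 and 36.3 TPM, and hoxb5a, at 27.1, 28.9 and 24.8 TPM. The ranges of these 3 overlapped. In WT3, hoxb3a was lowest and hoxa4a highest.

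**Figure D3:**
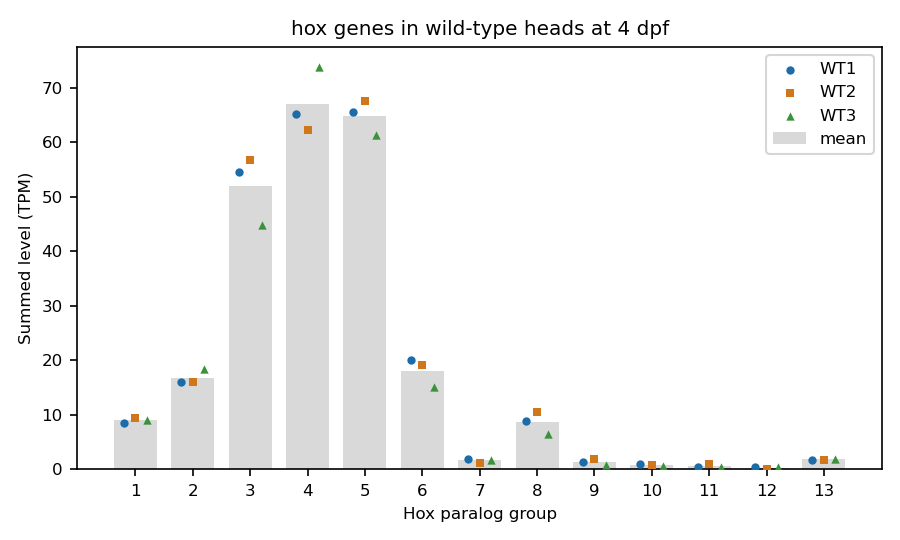
Summed level of the hox genes of each paralog group (TPM, linear axis). Bars give the mean of the 3 samples and points the single samples. Groups 3 to 5 stand highest, and groups 9 to 13 stay near 0.

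Duplicated genes were compared copy against copy. Of 2835 pairs of symbols that differ only in a final a or b, 2677 entered the comparison, with at least 1 copy at a mean of 1 TPM and each symbol listed once. A pair was called when its log2 ratio of copy a to copy b was at least 1 in size and the limma p, two-sided and adjusted by Benjamini-Hochberg over all 2677 pairs, was at most 0.05. By this rule 1528 pairs were called, 57.1% of those tested. Copy a was higher in 853 pairs (31.9%) and copy b in 675 pairs (25.2%). A further 1141 pairs differed by under 1 on the log2 scale. In 348 pairs the copies differed at least 10-fold. Over all pairs the median size of the log2 ratio was 1.21, and the ranges of the copies over the 3 samples overlapped in 440 pairs, 16.4%. A hand-written list of 285 pairs with known roles stood near this background: 170 were called, 59.6%, with copy a higher in 100 and copy b higher in 70. By an exact sign-flip permutation test, 3 samples cannot give a p below 0.25, so the calls rest on the pooled spread of limma. Reads shared between similar copies were not checked, also where a copy was listed at 0. An error that is the same in each sample shifts the ratio and is not measured by the p-value.

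**Figure D4:**
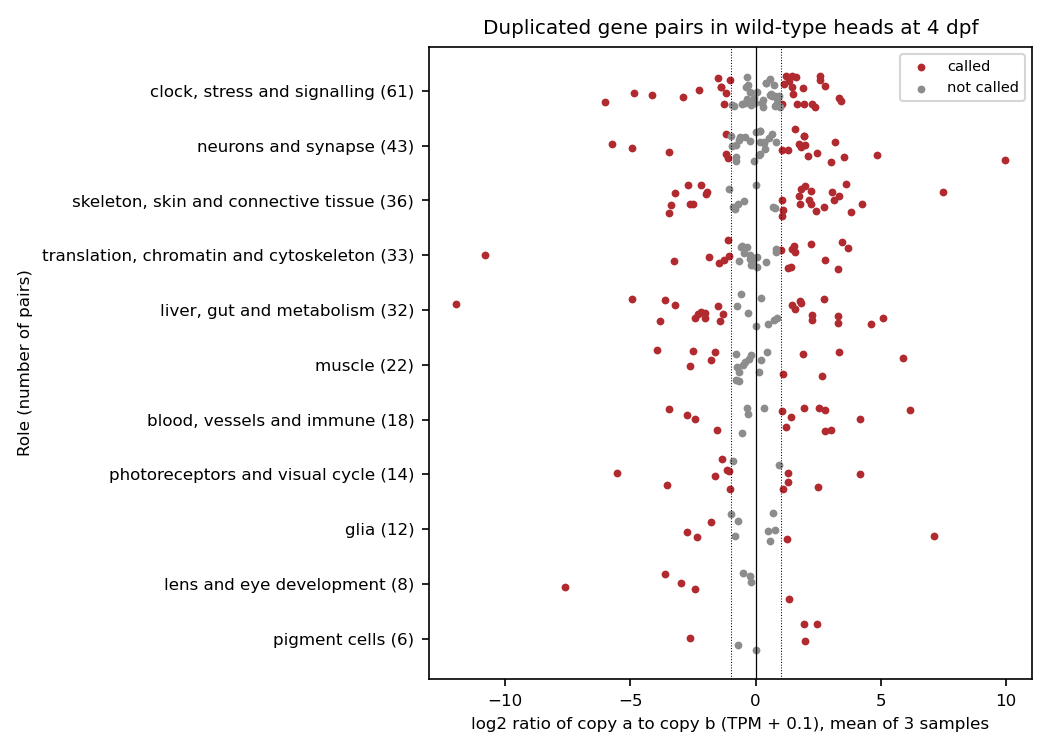
The log2 ratio of copy a to copy b for 285 duplicated pairs, grouped by role, with the number of pairs in each role. Each point is 1 pair, the mean over 3 samples. Called pairs are red and lie outside the dotted lines at 1 and -1, on either side of 0 in every role.

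Most photoreceptor pairs were called, as were most of all pairs. Of 14 pairs for photoreceptors and the visual cycle, 12 were called, 85.7%, against 57.1% of all pairs. Copy a was higher in 5 and copy b in 7. gngt2a had 73.9, 74.0 and 40.8 TPM, and gngt2b 2922, 2676 and 2849 TPM, a log2 ratio of -5.53 ± 0.187 (SE, limma adjusted p = 7.18e-06). For gnb3, the beta subunit of cone transducin, gnb3a had 72.1, 75.5 and 81.3 TPM and gnb3b 886, 835 and 941 TPM (log2 ratio -3.54 ± 0.0567, SE, limma adjusted p = 1.4e-06). The b copy thus led for these partners in the same G protein. The reverse held for arr3, the cone arrestin that shuts off active opsin. arr3a had 1040.5, 1109.6 and 582 TPM and arr3b 439, 451 and 237 TPM (log2 ratio 1.28 ± 0.0492, SE, limma adjusted p = 1.03e-05). WT3 was low for both arrestin copies, and their ratio held in each sample. Among further pairs, picked after their values were seen, the cone opsin kinase grk7a averaged 143 ± 16.9 TPM and grk7b 7.95 ± 1.69 TPM (SD, n = 3). The rod arrestin copies saga and sagb averaged 93.1 ± 9.54 TPM for saga and 239 ± 34.2 TPM for sagb. rlbp1a and rlbp1b, retinal-binding proteins of the visual cycle, averaged 91.4 ± 18.1 TPM for rlbp1a and 16.2 ± 0.0764 TPM for rlbp1b. tulp1a and tulp1b had a log2 ratio of 1.09 ± 0.115 (SE, limma adjusted p = 0.000367), just past the minimum ratio.

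In the lens and the developing eye, 5 of 8 pairs were called, 62.5%, against 57.1% of all pairs. cryba1a, a beta crystallin, had 2.90, 4.61 and 4.44 TPM, and cryba1b 764, 857 and 737 TPM (log2 ratio -7.61 ± 0.131, SE, limma adjusted p = 1.41e-06). cryba2a and cryba2b were closer, at 703, 718 and 634 TPM for cryba2a and 1068, 1006 and 868 TPM for cryba2b. The b copy was higher in each sample, but the log2 ratio of -0.52 ± 0.0536 (SE, limma adjusted p = 0.000354) was under the minimum of 1. mipa and mipb, the water channels of lens fibres, averaged 71.1 ± 8.73 TPM for mipa and 80.6 ± 11.7 TPM for mipb and were not called. Of 6 pigment cell pairs, 4 were called, 66.7%, against the same 57.1%. tyrp1a averaged 11.8 ± 2.67 TPM and tyrp1b 71.8 ± 9.75 TPM, while pmela, a fibre protein of the melanosome, averaged 44.2 ± 4.73 TPM and pmelb 8.09 ± 0.327 TPM.

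Neuronal pairs included several with copies of near equal level, at a share like that of all pairs. The ranges of the copies overlapped in 7 of 43 neuronal pairs, 16.3%, against 16.4% of all pairs. Of 43 pairs of neurons and the synapse, 21 were called, 48.8%, against 57.1% of all pairs. snap25a and snap25b, which encode a membrane fusion protein of the synapse, had 332, 299.8 and 329 TPM for snap25a and 302, 311 and 349.5 TPM for snap25b, and the higher copy differed between samples. They had a log2 ratio of -0.00098 ± 0.0685 (SE, limma adjusted p = 0.99). sypa and sypb, for the vesicle protein synaptophysin, had 357, 348 and 349 TPM for sypa and 331, 305 and 336 TPM for sypb and were not called. At the other end, ckba had 47.3, 67.1 and 50.6 TPM and ckbb 1541, 1705 and 1814 TPM (log2 ratio -4.95 ± 0.102, SE, limma adjusted p = 2.21e-06). Outside the rule for named genes, gad1a averaged 2.89 ± 0.175 TPM and gad1b 160.2 ± 4.84 TPM, and the vesicle calcium sensors syt1a and syt1b averaged 162 ± 13.3 TPM for syt1a and 5.59 ± 0.323 TPM for syt1b. cplx4a, a complexin of ribbon synapses, averaged 98.1 ± 10.6 TPM, and cplx4b was listed at 0 in all 3 samples. Of 12 glial pairs, 5 were called, 41.7%, against the same 57.1%. fabp7a and fabp7b differed most, at 1777, 1654 and 1565 TPM for fabp7a and 11.4, 11.8 and 12.1 TPM for fabp7b (log2 ratio 7.13 ± 0.0660, SE, limma adjusted p = 4.31e-07). mdka and mdkb, which encode the growth factor midkine, averaged 619 ± 8.37 TPM for mdka and 443 ± 23.1 TPM for mdkb and were not called. The a copy was higher in each sample, but the log2 ratio of 0.486 ± 0.0531 (SE, limma adjusted p = 0.000436) was under the minimum of 1.

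Of 22 muscle pairs, 10 were called, 45.5%, against 57.1% of all pairs, with 5 in each direction. mylpfa had 1521, 1539 and 1496 TPM and mylpfb 137, 159 and 153 TPM (log2 ratio 3.34 ± 0.0596, SE, limma adjusted p = 1.48e-06). For the fast troponin T genes the b copy led, with 225, 213 and 216 TPM for tnnt3a and 1309, 1298 and 1462 TPM for tnnt3b (log2 ratio -2.64 ± 0.0614, SE, limma adjusted p = 2.62e-06). ckma and ckmb, the muscle creatine kinases, averaged 387 ± 25.04 TPM for ckma and 608 ± 34.5 TPM for ckmb, and the b copy was higher in each sample without reaching the minimum ratio. Of 36 skeletal and skin pairs, 28 were called, 77.8%, against the same 57.1%, with copy a higher in 19. col2a1a had 758, 799 and 982 TPM and col2a1b 163, 175 and 213 TPM (log2 ratio 2.2 ± 0.0496, SE, limma adjusted p = 2.51e-06). col10a1a, a collagen of maturing cartilage and bone, had 416, 409.6 and 418 TPM, and col10a1b 1.89, 1.96 and 2.90 TPM (log2 ratio 7.49 ± 0.127, SE, limma adjusted p = 1.41e-06). The type I collagen copies col1a1a and col1a1b averaged 283 ± 32.2 TPM for col1a1a and 176 ± 22.7 TPM for col1a1b and were not called. The a copy was higher in each sample, but the log2 ratio of 0.689 ± 0.0623 (SE, limma adjusted p = 0.000203) was under the minimum of 1. The shares called in different roles were not tested against each other.

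Of 32 pairs of liver, gut and metabolism, 24 were called, 75%, against 57.1% of all pairs. apoa1a had 145, 316 and 113 TPM and apoa1b 1369, 2024 and 1541 TPM (log2 ratio -3.23 ± 0.199, SE, limma adjusted p = 4.73e-05). fth1a, the heavy chain of the iron store ferritin, had 876, 885 and 931 TPM and fth1b 24.9, 24.0 and 30.7 TPM (log2 ratio 5.08 ± 0.0728, SE, limma adjusted p = 1.16e-06). cox5aa and cox5ab, subunits of complex IV, averaged 701 ± 45.5 TPM for cox5aa and 205 ± 10.28 TPM for cox5ab. Glycolytic enzymes, named after their values were seen, showed no common letter. The a copy led for eno1a, at 577 ± 17.9 TPM against 86.8 ± 2.41 TPM for eno1b, and for ldhba, at 591 ± 5.57 TPM against 24.6 ± 1.94 TPM for ldhbb. The b copy led for aldoc, at 18.9 ± 2.04 TPM for aldoca and 579 ± 7.11 TPM for aldocb, and for tpi1, at 36.6 ± 2.98 TPM for tpi1a and 519 ± 15.3 TPM for tpi1b. cycsa, a somatic cytochrome c gene, was listed at 0 in all 3 samples, while cycsb averaged 396 ± 43.6 TPM.

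Of 33 pairs of translation, chromatin and cytoskeleton, 18 were called, 54.5%, against 57.1% of all pairs. ptmaa and ptmab, which encode the chromatin-associated acidic protein prothymosin alpha, had 1149.9, 1006 and 1071 TPM for ptmaa and 3101, 2864 and 3018 TPM for ptmab (log2 ratio -1.48 ± 0.0426, SE, limma adjusted p = 4.64e-06). cirbpa and cirbpb, cold-inducible RNA-binding proteins, had 1446, 1439 and 1232 TPM for cirbpa and 1851, 1860.02 and 1504 TPM for cirbpb, and ppiaa and ppiab, cyclophilins, 1857, 1804 and 1841 TPM for ppiaa and 982, 1009.9 and 1169 TPM for ppiab. In each of these a single copy was higher in all 3 samples, yet only ptmaa and ptmab passed the minimum ratio. rpl5a and rpl5b, copies of a ribosomal protein chosen after seeing the values, averaged 1311 ± 56.5 TPM for rpl5a and 1262 ± 29.1 TPM for rpl5b. Over the 285 listed pairs the higher copy differed between samples in 21. Over all 2677 pairs it did so in 285, so the listed pairs did not stand out by this measure. The 21 include hnrnpa1a and hnrnpa1b, pgam1a and pgam1b, gnao1a and gnao1b, myl9a and myl9b, penka and penkb, foxp1a and foxp1b, and ier2a and ier2b. For tefa and tefb, transcription factors under the circadian clock, the call depended on the samples used. tefa had 247, 221 and 58.9 TPM and tefb 71.0, 68.8 and 64.7 TPM, so copy a was above copy b in WT1 and WT2 and below it in WT3. The log2 ratio of 1.12 ± 0.391 (SE, limma adjusted p = 0.0418) passed the rule, but was 0.77 without WT1 and 0.83 without WT2 and then no longer passed.

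Most genes varied little among the 3 samples. Over 21079 entries with a mean of at least 1 TPM, the median SD of the log2 level was 0.17. The highest sample was at least 2 times the lowest in 2055 of them, 9.75%. This share was 23.1% between 1 and 5 TPM, 3.72% between 10 and 100 TPM and 1.96% above 1000 TPM. Above 1000 TPM only 3 of 153 genes passed: pde6ha, the inhibitory gamma subunit of the cone phosphodiesterase, and the globins hbae1.3 and hbbe1.2. Of the 2055 entries, WT3 stood apart from the other samples on the low side in 535 and on the high side in 355. WT2 stood low in 341 and high in 304, and WT1 low in 341 and high in 179. Across entries, Pearson's r of log2 levels was 0.943 between WT1 and WT2, 0.939 between WT1 and WT3 and 0.929 between WT2 and WT3. These are given as a description, since entries of 1 library share its depth.

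The circadian clock genes were lowest in WT3. The list summed to 2196, 2189 and 1478 TPM in WT1, WT2 and WT3. WT3 was the lowest sample for 37 of 47 entries, against 32.7% of all entries with a mean of at least 1 TPM. Differences of at least 2-fold between samples were seen in 15 of the 47, against 9.75% of all such entries. per2, a repressor of the clock that light induces in zebrafish, had 74.1, 71.2 and 3.74 TPM. cry5, a photolyase-like gene, had 33.7, 30.9 and 2.05 TPM, cry1a, a repressor cryptochrome, 94.6, 89.1 and 17.3 TPM, and cry-dash 66.1, 67.1 and 10.4 TPM. Each of these was close in WT1 and WT2 and at least 5 times lower in WT3. The kinase gene csnk1db went the other way, with 81.9, 89.5 and 102 TPM. per1b, at 38.5, 42.6 and 28.3 TPM, and nr1d1, a nuclear receptor that represses clock activators, at 72.4, 132 and 61.9 TPM, were lowest in WT3 too, and both were highest in WT2. per2, cry5, cry1a, cry-dash, csnk1db, per1b and nr1d1 were chosen after their values were seen.

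Liver, intestine and exocrine pancreas genes were highest in WT2. WT2 was the highest sample for 40 of 48 liver entries, 27 of 33 intestine entries and 22 of 24 exocrine pancreas entries with a mean of at least 1 TPM, against 30.3% of all such entries. Relative to the mean of the 3 samples, the median log2 level of these lists stood 0.30, 0.30 and 0.46 higher in WT2. The 3 lists did not share their lowest sample. Liver and intestine were lowest in WT1 for 32 and 25 entries, against 32.2% of all entries, while exocrine pancreas was lowest in WT3 for 14. For fabp1b.1, a fatty acid binding protein of the gut, the samples had 262, 507 and 455 TPM, and for ctrb1, a chymotrypsin, 166, 251 and 159 TPM. How much trunk tissue each dissection took is not recorded in the labels, and its part in these values was not tested.

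Immediate early genes, which respond within minutes to cell stimulation, were lowest in WT1. The list summed to 820.4, 1084 and 1189 TPM, and WT1 was lowest for 27 of 40 entries, against 32.2% of all entries. fosab, a member of the AP-1 factor, had 5.55, 20.6 and 42.5 TPM, and egr1, a zinc finger factor, 22.1, 71.7 and 56.1 TPM. Heat shock and chaperone genes were highest in WT3, at 5596, 5531 and 6714 TPM in WT1, WT2 and WT3, with WT3 highest for 26 of 40 entries against 39.0% of all entries. The collagen chaperone serpinh1b had 48.6, 30.2 and 243 TPM, the endoplasmic reticulum chaperone hspa5 193, 192 and 334 TPM, and hsp90aa1.2 72.1, 64.2 and 164 TPM. hspa8, the constitutive chaperone that led the list, was also highest in WT3, at 2019, 1964 and 2321 TPM. Its highest sample was 1.18 times its lowest, against 1.21 for the list sum. Of these, fosab, egr1, serpinh1b, hspa5 and hsp90aa1.2 were picked for their spread.

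**Figure D5:**
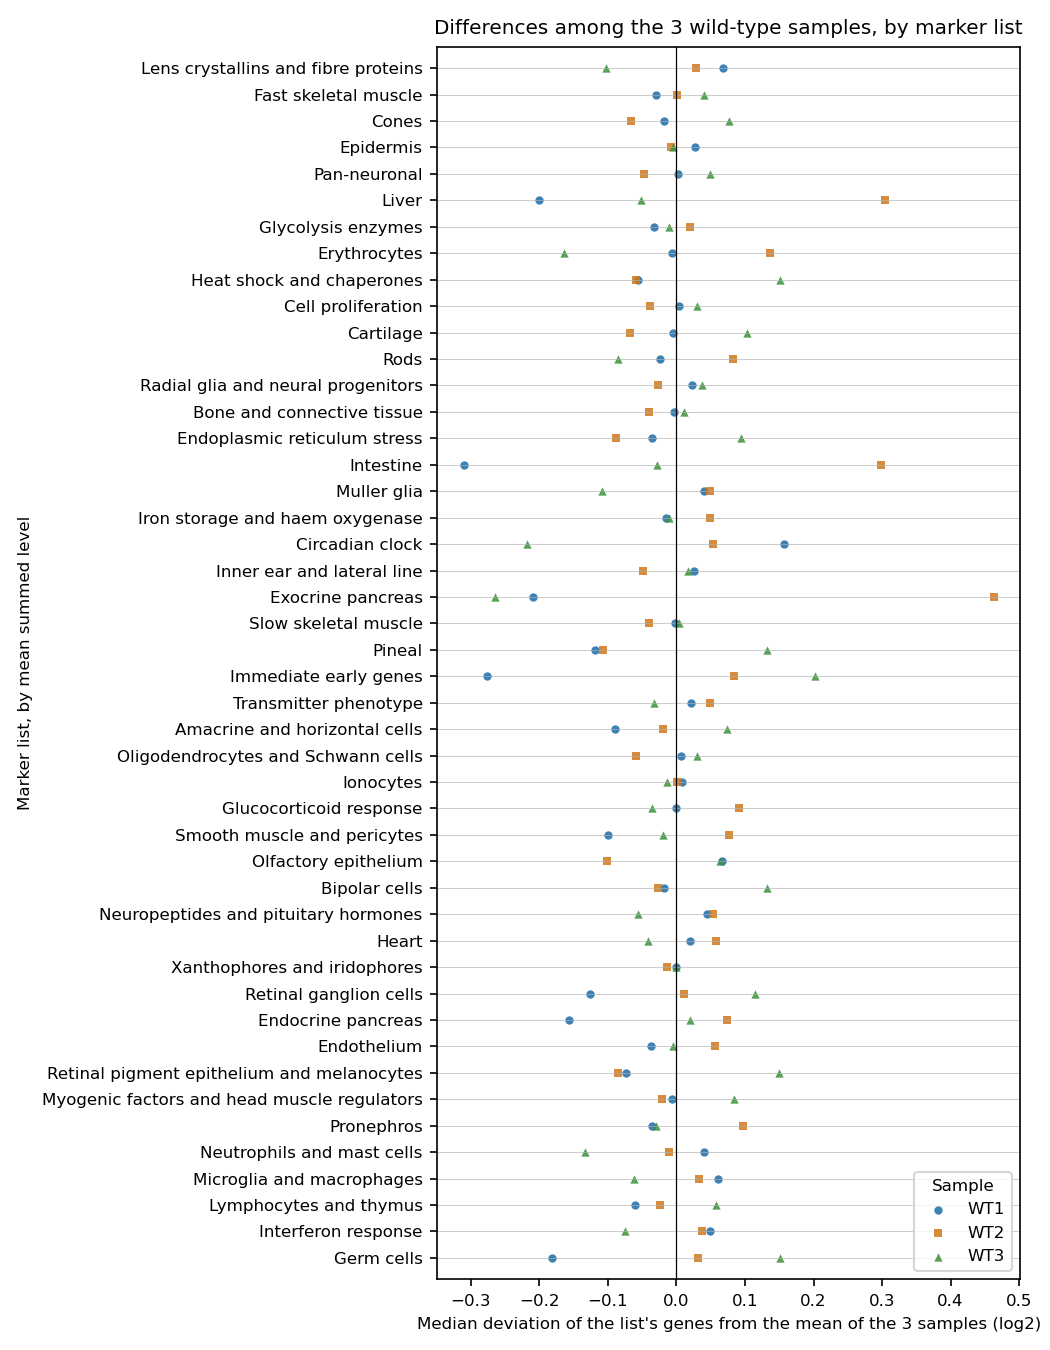
Median deviation of the genes of each marker list from the mean of the 3 samples (log2), for the 46 lists with entries at a mean of 1 TPM or more. Each point is 1 sample. WT2 lies to the right for liver, intestine and exocrine pancreas, WT3 to the left for circadian clock, and WT1 to the left for immediate early genes and intestine.

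Photoreceptor genes did not move together in WT3. The red, green and blue opsins opn1lw2, opn1mw1 and opn1sw2 were highest in WT3, with 2489, 2368 and 2991 TPM for opn1lw2, 1593, 1343 and 1978 TPM for opn1mw1 and 1165, 1048 and 1528 TPM for opn1sw2 in WT1, WT2 and WT3. pde6ha was lowest there, with 1976, 2701 and 713 TPM. arr3a, arr3b and the calcium sensor rcvrn3 were also lowest in WT3, at 1040.5, 1109.6 and 582 TPM for arr3a, 439, 451 and 237 TPM for arr3b and 416, 428 and 254 TPM for rcvrn3. gnat2 was highest there, at 823, 817 and 1021 TPM, and opn1sw1 differed little. The cone sum stayed within 1.03 times between samples, while single members went in opposite directions. Of 28 cone entries with a mean of at least 1 TPM, WT3 was highest for 15 and lowest for 10. The shares over all such entries were 39.0% and 32.7%. opn1mw1, opn1sw2 and pde6ha were named outside the rule for named genes.

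Among the globins, members of the same cluster ran in opposite directions. hbae1.3, in the more abundant of the 2 entries that carry this symbol, had 2003, 2624 and 1175 TPM, and hbbe1.2 1605, 1976 and 768 TPM. Both were highest in WT2 and lowest in WT3. hbbe1.1 had 347, 186 and 736 TPM and hbae1.1 44.7, 22.0 and 96.3 TPM, both lowest in WT2 and highest in WT3. hbae3 and hbbe2 varied less, at 2255, 2429 and 1955 TPM for hbae3 and 278, 339 and 332 TPM for hbbe2. hbbe1.1, hbae1.1 and hbbe2 were named outside the rule for named genes. The hbae1 and hbbe1 genes are near-identical tandem copies, so the division of reads among them is uncertain, and its part in these values was not tested. The erythrocyte list as a whole summed to 6910.2, 7942 and 5363 TPM, a ratio of 1.48 between WT2 and WT3.

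The entries that differed most among the samples were mostly without a described gene product. Of 15250 entries with a mean of at least 5 TPM, 52 were listed at 0 in at least 1 sample, and 47 of these, 90.4%, had no description, against 4.26% of all 15250. CT583728.10 had 852, 0 and 863 TPM, and BX537263.4 0, 312 and 548 TPM. Of the 52 entries, 10 shared all 3 of their values with another entry. Among entries above 0 in all 3 samples, an alternative added after the data were seen, described genes included asb14a, at 9.79, 11.5 and 0.140 TPM, bahcc1b, at 9.14, 201 and 9.37 TPM, gabra3, a subunit of the GABA receptor, at 34.3, 3.14 and 22.3 TPM, and hcn4, a pacemaker channel, at 39.2, 33.6 and 3.14 TPM. bahcc1b stood high in WT2 alone, gabra3 low in WT2, and asb14a and hcn4 low in WT3. The steadiest genes were of other kinds. They were picked as the smallest spreads among the 15250 entries, with 3 values each, and steadiness in further samples was not tested. ptrhd1 had 9.52, 9.52 and 9.50 TPM, gpaa1, part of the machinery that adds lipid anchors to proteins, 12.7, 12.7 and 12.7 TPM, cct8, a subunit of the CCT chaperonin, 115, 115 and 114 TPM, and slc1a3a, a glial glutamate transporter, 35.2, 35.1 and 35.3 TPM.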

How the data were processed

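The authors sequenced head RNA on an Illumina NovaSeq instrument, placed the reads on the zebrafish genome GRCz11 by HISAT2, and used RSEM for gene counts, which they turned into TPM. Tool versions, annotation release and strandedness are not given in the sources used here. The deposited values are 1 TPM value per gene and sample. The listed entries summed to 945666, 946416 and 947332 TPM in WT1, WT2 and WT3, short of 1000000, and were used without rescaling. TPM keeps no depth, so no counting interval could be given. Files of the knockout heads were not used.

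Genes were ranked by mean TPM and marker genes were summed over 47 hand-written lists of 1444 names, of which 72.2% to 100% per list were found in the tables. Spread was measured on log2(TPM + 0.1), so a difference of a low gene is understated. For duplicated pairs the log2 ratio of copy a to copy b, (TPM + 0.1) each, was fitted in limma 3.58.1 (R 4.3.3, intercept only, eBayes with trend). Left out were 62 pairs with a symbol listed more than once and 96 with both copies under 1 TPM. Some symbol pairs may not descend from the teleost duplication, since letters that belong to separate human genes were removed by hand. The test was first tried on simulated data. Descriptions were made with Python 3.11.15 and pandas 2.3.3.

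The members, gene lists and pair list were chosen with earlier results of these data known. Genes named by rule were the 30 most abundant, the 3 highest of each list and those at 0, the 3 highest pairs of each role and pairs whose order differed between samples, the 20 most and 10 least variable entries of at least 5 TPM, and all hox genes. Not all of these are named. The 20 most variable had no description and only the first 2 are named. Left out above were robo2, ora5, hbba1 and hbba2, which were at 0. Also left out were most pairs of blood, vessels and immune, with 14 of 18 called (77.8%). The same holds for clock, stress and signalling, with 29 of 61 called (47.5%). The share over all pairs was 57.1%. Alternatives were other pseudocounts, minimum levels, scalings, fits and leaving out each sample. No sequence or gene position is given, and the planned comparison of protein and promoter sequences was not run.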

Additional observations from a re-analysis of the deposited data

How the results depend on the processing

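Pair calls, the number of lists reaching 1000 TPM and the share of the 50 most abundant genes stayed within 1.5 times under all alternatives but 1. Restricting pairs to the 1196 whose copies carry the same symbol gave 654 calls, of fewer pairs tested, or 54.7%. Without the minimum ratio 2169 pairs were called. Leaving out each sample gave 1514 to 1534 calls, 23 to 24 lists and a share of 20.1% to 20.2%. The count of entries differing at least 2-fold between samples depended on the processing: it was 1281 with a pseudocount of 1, 5401 of 26525 entries with no minimum, 389 of 10989 with a minimum of 10 TPM, and 951 to 1314 when a sample was left out, with fewer samples to differ. Scaling moved it little, to 2048 with the 50 most abundant genes left out and 2064 with quantile normalization.

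Among 51 named pairs, 8 that were near equal and not called changed the sign of their log2 ratio when 1 sample was left out. Over the 3 omissions ier2a/ier2b ran between -0.25 and 0.088, foxp1a/foxp1b between -0.039 and 0.14, dnajb1a/dnajb1b between -0.12 and 0.086, pgam1a/pgam1b between -0.11 and 0.10, snap25a/snap25b between -0.070 and 0.041, penka/penkb between -0.0057 and 0.37, slc2a15a/slc2a15b between -0.17 and 0.13, and hapln1a/hapln1b between -0.14 and 0.18. The call of tefa/tefb was lost without WT1, without WT2 and with eBayes without trend, where its log2 ratio was 1.12. notch1a/notch1b passed without WT1, at 1.09, runx2a/runx2b without WT2, at 1.39, and dnajb9a/dnajb9b without WT3, at 1.02. The lists without their 3 most abundant members, an alternative added after the data were seen, reached 1000 TPM in 17 cases, and the first 5 lists kept their place among the first 5. The order of the lists was less firm. Without the most abundant member 32 of 47 lists changed place, by up to 7 places. Without the 3 most abundant members 39 did so, by up to 11 places. Leaving out 1 sample moved 2 to 17 lists, by up to 3 places.

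No paired analysis was possible because all results come from 1 group of samples, and none from a test between groups. With 3 samples, single-sample departures cannot be tested, and with TPM alone the counting error of low genes is unknown.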
